A study of Mus musculus with 6 samples.

Results

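Elastic fibres give lung tissue its recoil. Each has a core of crosslinked elastin laid down on microfibrils, which are bundles of fibrillin decorated with small microfibril-associated glycoproteins, and fibulins link the core, the microfibrils and the cell surface. Fibroblasts and smooth muscle cells are known sources of these proteins in lung, and lysyl oxidases crosslink the elastin after secretion.

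The 10 elastic fibre and microfibril genes described here were taken by symbol, and all 10 were found among the 55298 genes of the files: elastin (Eln), the fibrillins Fbn1 and Fbn2, the microfibril-associated genes Mfap2, Mfap4 and Mfap5, and the fibulins Fbln1, Fbln2, Fbln5 and Efemp1. Their RNA was measured by RNA-seq in cancer-associated fibroblasts from orthotopic lung tumours of wild-type C57BL/6 mice older than 8 weeks. One sorted population carried MHC class II on its surface (apCAFs 1, 2 and 3) and the other did not (nonapCAFs 4, 5 and 6). Both came from large cells that stained for PDPN (written PDPL in the labels) and PDGFRa and lacked EPCAM, CD31, CD45 and mCherry. Because tumours were pooled, libraries are not single animals, and the labels name 3 independent experiments without saying which libraries share one. Values are the authors' normalized counts, whose totals ran from 89881929 to 93330791 in apCAFs, against 77960347 to 84259822 in nonapCAFs; these are not sequencing depths, which are unknown.

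Markers of fibroblasts were present throughout, and those of several other cell types differed between the populations. The summed level of 10 fibroblast markers was 2817570 to 4241527 in apCAFs, against 1199268 to 1443858 in nonapCAFs, and all 10 were above 0 in every library. Alveolar type II cell markers summed to 101828 and 84157 in apCAFs 1 and 2 and to 8984 in apCAFs 3, against 9037 to 10244 in nonapCAFs, with 0 of 10 called. Called means an adjusted p under 0.05 in the limma fit described below. That fit called 3.91% of all tested genes higher, and 5.87% of those averaging 100 or more. Mesothelial markers summed to 50131 to 55914 in apCAFs, against 13099 to 15336 in nonapCAFs, with 7 of 11 called higher. For pericytes and smooth muscle the sums were 78759 to 89372 in apCAFs, against 22930 to 30522 in nonapCAFs, with 6 of 14 called higher, and for adventitial fibroblasts 162135 to 264562 in apCAFs, against 90072 to 92832 in nonapCAFs, with 3 of 11 called higher. Alveolar fibroblast sums overlapped, at 47393 to 58909 in apCAFs and 27375 to 60321 in nonapCAFs. Epithelial markers summed to 11734 to 19651 in apCAFs, against 7319 to 10569 in nonapCAFs; endothelial markers reached at most 6464 and leukocyte markers at most 3540 in any library. Of the other lists, 4 of 10 fibroblast, 2 of 10 epithelial, 1 of 12 alveolar fibroblast, 1 of 10 endothelial and 0 of 10 leukocyte markers were called higher. Some markers went against the sum of their list. The fibroblast marker Lum was lower in every apCAFs library, with means of 10139 in apCAFs and 18786 in nonapCAFs. The adventitial marker Pi16 averaged 4250 in apCAFs and 8611 in nonapCAFs, and its groups overlapped. Rgs5, of the pericyte and smooth muscle list, averaged 30 in apCAFs and 111 in nonapCAFs, and its groups overlapped too. The leukocyte marker Itgax was lower in every apCAFs library, with means of 249 in apCAFs and 545 in nonapCAFs. Every list but that of type II cells held markers with a log2 fold change below 0. No marker was at 0 in all libraries. In bulk RNA of a sorted population, more cells of a type and more RNA per cell cannot be told apart.

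Promoter sequences of 6 of the 10 genes were found in RefSeq (GRCm38.p6), as windows of 300 bases that run from 250 bases before a start site to 50 after it. Shown here are the windows of the called genes among these 6, Efemp1 and Fbln1, and of the genes with the largest and the smallest fold change, Mfap2 and Fbln5, each at the start site nearest to the gene's annotated start. They lie at chr11:28852955-28853254 (plus strand), chr15:85205699-85205998 (plus strand), chr4:141010174-141010473 (plus strand) and chr12:101819070-101819369 (minus strand). Capitals mark matches on either strand to the TATA box TATAAA, the GC box core GGGCGG, the AP-1 core TGANTCA, the E-box CACGTG, the TEAD core GGAATG, the SMAD element CAGACA or the CArG box, and no matches overlap in these windows. A match describes the letters only.
Efemp1: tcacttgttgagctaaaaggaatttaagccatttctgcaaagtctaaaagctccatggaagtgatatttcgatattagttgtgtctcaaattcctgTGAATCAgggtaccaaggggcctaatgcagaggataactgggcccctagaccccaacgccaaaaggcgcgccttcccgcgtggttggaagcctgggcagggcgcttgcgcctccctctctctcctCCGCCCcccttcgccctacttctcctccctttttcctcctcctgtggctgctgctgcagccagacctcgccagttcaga
Fbln1: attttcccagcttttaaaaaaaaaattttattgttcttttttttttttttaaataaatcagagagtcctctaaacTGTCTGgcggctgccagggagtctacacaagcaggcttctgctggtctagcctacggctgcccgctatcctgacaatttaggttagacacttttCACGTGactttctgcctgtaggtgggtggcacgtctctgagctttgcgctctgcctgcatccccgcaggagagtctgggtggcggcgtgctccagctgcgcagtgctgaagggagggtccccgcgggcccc
Mfap2: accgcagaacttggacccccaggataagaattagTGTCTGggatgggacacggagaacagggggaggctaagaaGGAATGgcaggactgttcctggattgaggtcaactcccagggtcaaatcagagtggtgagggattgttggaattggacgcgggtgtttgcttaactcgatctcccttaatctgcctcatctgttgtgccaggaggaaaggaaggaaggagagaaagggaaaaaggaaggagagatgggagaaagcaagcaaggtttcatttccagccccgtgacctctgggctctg
Fbln5: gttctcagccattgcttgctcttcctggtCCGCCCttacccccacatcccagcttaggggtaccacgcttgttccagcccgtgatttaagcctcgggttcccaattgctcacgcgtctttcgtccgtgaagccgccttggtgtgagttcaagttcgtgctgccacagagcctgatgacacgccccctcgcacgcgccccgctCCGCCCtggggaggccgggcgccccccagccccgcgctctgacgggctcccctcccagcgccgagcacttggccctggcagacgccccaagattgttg

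No motif searched was in all 4 windows shown. GGGCGG was found once in the Efemp1 window and in 2 places in the Fbln5 window, and 35.7% of the 32851 RefSeq promoter windows hold it. Mfap2, Fbln1 and Fbln5 each have another start site, farther from the annotated start and not shown. The windows there hold GGGCGG in 2 places for Mfap2 and in 2 for Fbln1, and none for Fbln5. With those windows, all 4 genes have a GGGCGG match. The 35.7% is a share of single windows, and a share of genes over all their windows was not computed. TGANTCA was found in the Efemp1 window (7.81% of all windows), and CACGTG in the Fbln1 window (7.15% of all windows). CAGACA was found in the Fbln1 and Mfap2 windows (6913 of the 32851 windows), and GGAATG in the Mfap2 window (14.7% of all windows). TATAAA (13.6% of all windows) and the CArG box bound by serum response factor (1.63% of all windows) were in none of the 4.

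All 10 genes were higher in apCAFs on average, by 1.58-fold to 4.45-fold in limma's estimates, and 4 of them were called: Eln, Mfap4, Fbln1 and Efemp1. The test was limma on log2(value + 1), so that every fold change given is one of mean log2 values and can differ from the ratio of 2 means, over all 36443 genes above 0 in at least 1 library, called at an adjusted p of 0.05; in the same fit 3.91% of all tested genes were called higher, and 5.87% of those averaging 100 or more, a level that all 10 genes exceed. Fitting only the genes averaging 100 or more called 7 of the 10, where 13.0% of genes were called higher, and a variance trend also called 7, where 8.13% were. Over all tested genes 1425 were called higher and 177 lower, and after quantile normalization 1049 higher and 281 lower. The median log2 fold change of the 10 genes was 1.31, against -0.04 over all tested genes. For 9 of the 10 every apCAFs library exceeded every nonapCAFs library, the exception being Fbn2, and this held for 17.1% of all tested genes and 25.5% of those averaging 100 or more. In the authors' deposited table, 9 of the 10, all but Fbn2, had a DESeq2 adjusted p under 0.05 with a higher value in apCAFs, as did 20.6% of the 19255 genes given one there.

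**Figure D1:**
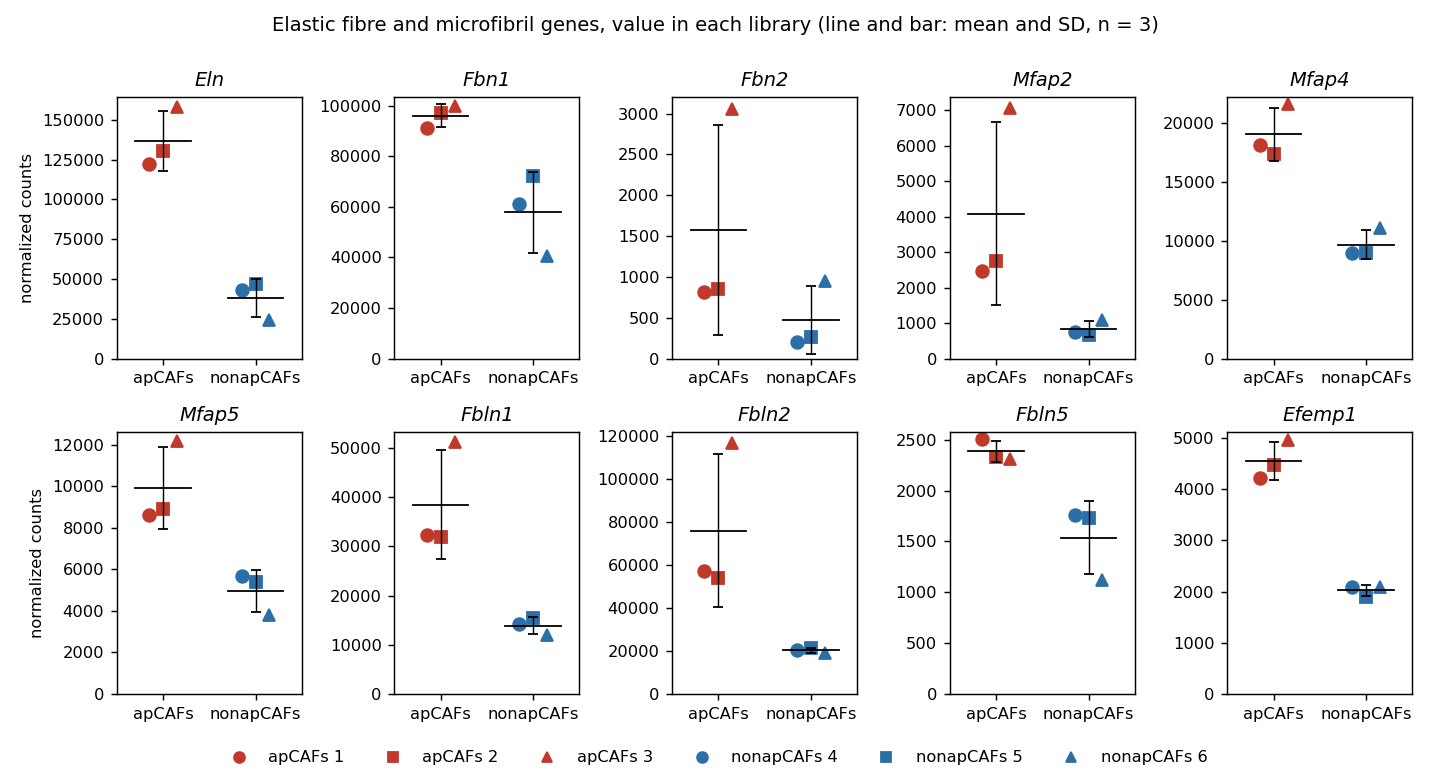
Authors' normalized counts of each gene (vertical axis, linear, from 0) in the 3 apCAFs libraries (red) and the 3 nonapCAFs libraries (blue), with the mean and SD of each group in black. The groups are apart in every panel but that of Fbn2, where nonapCAFs 6, at 955, lies above apCAFs 1 and 2, at 810 and 849.

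Elastin was the most abundant of the 10 per kilobase of exon in apCAFs. Eln (ENSMUSG00000029675, mm10, chromosome 5, 134702593 to 134747323, minus strand) encodes tropoelastin, the soluble precursor of the fibre core. It had 122001, 130586 and 157978 normalized counts in apCAFs 1, 2 and 3, against 42792, 46668 and 24179 in nonapCAFs 4, 5 and 6. The lowest apCAFs library was far above the highest nonapCAFs library, and nonapCAFs 6 was the lowest of all. The means were 136855 ± 18790 in apCAFs and 37880 ± 12022 in nonapCAFs (SD, n = 3 each). On the log2 scale limma's fold change was 3.74 (log2 1.90, SE 0.30, adjusted p = 0.0357). An antisense transcript, Gm30003, shares 267 exon bases with Eln and had 1224, 1227 and 1509 in apCAFs and 354, 424 and 242 in nonapCAFs; the strand setting of the counting is not given in the sources used here, so their reads in the shared stretch cannot be told apart.

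The fibrillins, which polymerize into the microfibril backbone, did not pass the test. Fbn1 (chromosome 2, 125300594 to 125507993, minus strand), the main fibrillin of adult tissue, had 91100, 97229 and 99850 normalized counts in apCAFs and 60931, 72044 and 40458 in nonapCAFs. The groups did not overlap, but the spread in nonapCAFs was wide, with nonapCAFs 6 again lowest (1.71-fold, log2 0.77, SE 0.25, limma adjusted p = 0.183). Fbn1 shares 2442 exon bases with Gm9913 on the opposite strand, which had 3735 to 4575 in apCAFs and 1670 to 3117 in nonapCAFs. Fbn2, the fibrillin known mainly from developing tissue, had 810, 849 and 3058 in apCAFs and 208, 260 and 955 in nonapCAFs. Here the groups overlapped, and apCAFs 3 and nonapCAFs 6 each stood far above the other libraries of their group (3.43-fold, log2 1.78, SE 0.81, limma adjusted p = 0.30). Fbn2 shares 129 exon bases with Gm26507 on the opposite strand, for which no values were found under its gene ID.

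The balance of elastin to the fibrillin it is deposited on was higher in every apCAFs library. The ratio of Eln to Fbn1 counts within a library, which does not depend on the scaling between libraries, was 1.34, 1.34 and 1.58 in apCAFs 1, 2 and 3 and 0.702, 0.648 and 0.598 in nonapCAFs 4, 5 and 6. All 3 apCAFs libraries lay above all 3 nonapCAFs libraries, with means of 1.42 ± 0.14 in apCAFs and 0.649 ± 0.052 in nonapCAFs (SD, n = 3 each; two-sided exact permutation p = 0.10). With 3 libraries against 3, 0.10 is the smallest p this test allows. The ratio of Fbn2 to Fbn1 overlapped between the groups, at 0.00873 to 0.0306 in apCAFs and 0.00341 to 0.0236 in nonapCAFs. The 26 ratios computed, 6 between members or with Lox, 10 against Col1a1 and 10 against Col3a1, were chosen after the values were seen.

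Of the microfibril-associated genes, Mfap4 rose and the others missed the threshold. Mfap4 (chromosome 11, 61485431 to 61488900, plus strand) encodes a protein that binds elastin and fibrillin and aids fibre assembly. It had 18133, 17372 and 21577 normalized counts in apCAFs and 8943, 8964 and 11092 in nonapCAFs. The libraries of each group lay close together, and the 1.97-fold change passed (limma adjusted p = 0.0447, log2 0.98, SE 0.17). Mfap4 shares 89 exon bases with Mapk7 on the opposite strand, which had 4127 to 4871 in apCAFs and 4883 to 5356 in nonapCAFs.

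Mfap2 and Mfap5 encode MAGP-1 and MAGP-2, small glycoproteins that bind fibrillin. Mfap2 (chromosome 4, 141010418 to 141015984, plus strand) had 2461, 2742 and 7064 normalized counts in apCAFs and 748, 656 and 1099 in nonapCAFs. Its fold difference was the largest of the 10 (4.45-fold, log2 2.15, SE 0.48), with apCAFs 3 far above apCAFs 1 and 2, and did not pass (limma adjusted p = 0.079). Mfap5 (chromosome 6, 122505845 to 122529290, plus strand) had 8609, 8922 and 12184 in apCAFs and 5695, 5406 and 3819 in nonapCAFs. Its groups did not overlap either, with a smaller difference (2.0-fold, log2 1.0, SE 0.24, limma adjusted p = 0.0972). The ratio of Mfap2 to Mfap5 ran from 0.286 to 0.580 in apCAFs and from 0.121 to 0.288 in nonapCAFs, and the groups overlapped.

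Among the fibulins, Fbln1 and Efemp1 rose. Fbln1 (chromosome 15, 85205949 to 85286535, plus strand), whose product binds elastin, fibronectin and basement membrane proteins, had 32317, 31900 and 51276 normalized counts in apCAFs and 14304, 15449 and 11908 in nonapCAFs. Every apCAFs library was above every nonapCAFs library, and apCAFs 3 was highest (2.72-fold, log2 1.44, SE 0.25, limma adjusted p = 0.0434). Efemp1 (chromosome 11, 28853204 to 28926743, plus strand) encodes fibulin-3, which in mice is needed for normal elastic fibres in fascia. It had 4224, 4480 and 4967 in apCAFs and 2098, 1894 and 2081 in nonapCAFs, the tightest groups relative to their distance of the 10 genes. The 2.25-fold difference (log2 1.17, SE 0.14) had the smallest adjusted p of the 10 (limma adjusted p = 0.0201).

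Fbln2 and Fbln5 did not pass. Fbln2 (chromosome 6, 91212455 to 91272540, plus strand), found at elastic fibres and in basement membranes, had 56957, 53827 and 116851 normalized counts in apCAFs and 20213, 21550 and 18848 in nonapCAFs. The groups were wide apart, with apCAFs 3 at about the sum of the other apCAFs libraries (3.52-fold, log2 1.82, SE 0.34, limma adjusted p = 0.0531). Fbln5 (chromosome 12, 101746565 to 101819055, minus strand), which in mice is required for elastic fibre assembly, had 2506, 2333 and 2315 in apCAFs and 1761, 1731 and 1120 in nonapCAFs. It showed the smallest fold difference of the 10 (1.58-fold, log2 0.66, SE 0.22, limma adjusted p = 0.198). Set against elastin within a library, Fbln5 was lower in every apCAFs library, at 0.0147 to 0.0205 per count of Eln, than in any nonapCAFs library, at 0.0371 to 0.0463 (two-sided exact permutation p = 0.10, the smallest possible).

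**Figure D2:**
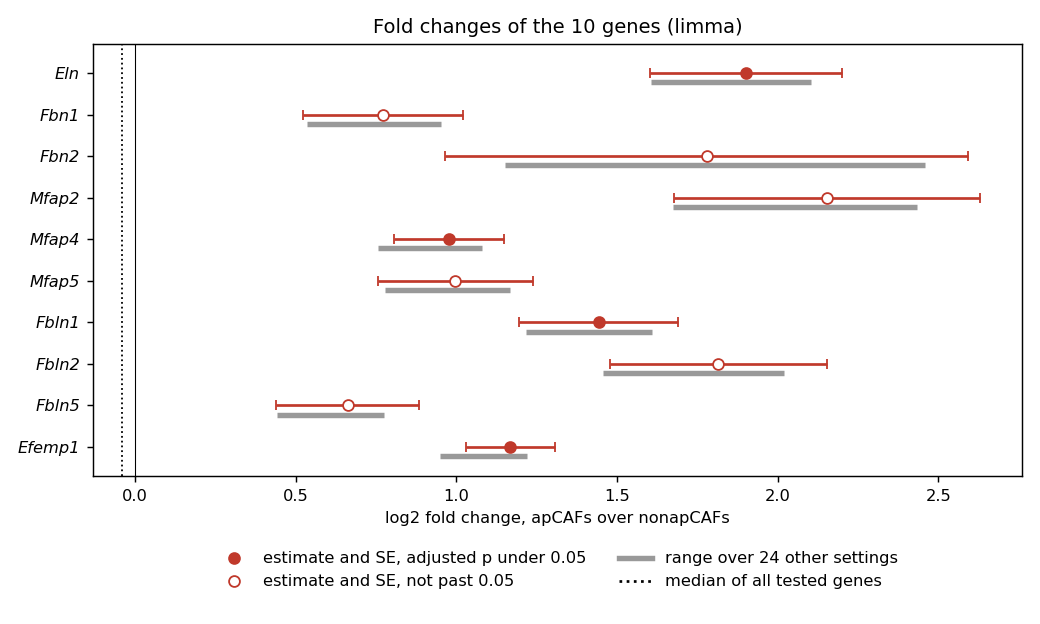
Log2 fold change of each gene (horizontal axis, apCAFs over nonapCAFs) with limma's SE, filled where the adjusted p is under 0.05; grey bars span 24 other settings of the analysis and the dotted line is the median of all tested genes, -0.04. All 10 estimates and all grey bars lie above 0, from 0.44 for the lowest setting of Fbln5 to 2.46 for the highest of Fbn2. Settings that change only the filter, the variance or the added terms leave the estimate as it was.

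The 4 calls depended on which libraries were kept, on the scaling and, for Mfap4, on the pseudocount (limma adjusted p = 0.0501 with 0.5). None remained with an experiment term under any of the 6 pairings of 1 apCAFs with 1 nonapCAFs library. Nor did any once the alike libraries (apCAFs 1 with 2, nonapCAFs 4 with 5) were averaged. In those fits 0 of all 36443 tested genes were called. None remained without apCAFs 1, apCAFs 2, nonapCAFs 4 or nonapCAFs 5 either. Leaving out 1 of these left 254 to 347 genes in all called higher, against 1425 in the main fit. Mfap4 and Fbln1 were also lost under each of the 4 other scalings, with limma adjusted p of 0.0601 to 0.0907 for Mfap4 and 0.051 to 0.0668 for Fbln1. Eln kept its call under 3 of those scalings and Efemp1 under all 4. Without apCAFs 3 limma called Fbln1, Fbln2 and Efemp1, and without nonapCAFs 6 it called Eln alone.

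On the scale of normalized counts per kilobase of exon, the 10 genes spanned a wide range of levels. In apCAFs the order of mean levels was Eln (16900 ± 2320 per kilobase), Fbln2 (11912 ± 5576), Mfap4 (9900 ± 1166), Fbln1 (8814 ± 2534), Fbn1 (7920 ± 370), Mfap2 (3377 ± 2131), Mfap5 (2760 ± 552), Efemp1 (2237 ± 185), Fbln5 (345.1 ± 15.3) and Fbn2 (119.0 ± 97.4). In nonapCAFs it was Mfap4 (5029 ± 642 per kilobase), Fbn1 (4767 ± 1321), Eln (4678 ± 1485), Fbln1 (3179 ± 414), Fbln2 (3172 ± 212), Mfap5 (1386 ± 281), Efemp1 (993.8 ± 55.6), Mfap2 (689.0 ± 193.0), Fbln5 (222.4 ± 52.3) and Fbn2 (35.9 ± 31.6). Neighbours among the first 5 overlapped between libraries in both groups. In apCAFs Mfap2 also overlapped with Mfap5, and Mfap5 with Efemp1. Every other pair of neighbours was apart.

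The make-up of the summed level differed too. The 10 genes summed to 55280, 56286 and 81283 normalized counts per kilobase in apCAFs 1, 2 and 3 and to 24914, 26535 and 21005 in nonapCAFs 4, 5 and 6. Eln made up 26.6% ± 2.4 of that sum in apCAFs and 19.0% ± 4.2 in nonapCAFs, and Fbn1 12.7% ± 2.2 in apCAFs and 19.5% ± 3.3 in nonapCAFs (SD, n = 3 each). For both genes the 3 apCAFs libraries lay apart from the 3 nonapCAFs libraries. The share of Fbln2, higher in apCAFs, was apart in the same way, as were those of Mfap4, Mfap5 and Fbln5, lower in apCAFs. Those of Fbn2, Mfap2, Fbln1 and Efemp1 overlapped. Fbln1 held 13.6% ± 0.8 of the sum in apCAFs and 13.2% ± 0.2 in nonapCAFs.

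**Figure D3:**
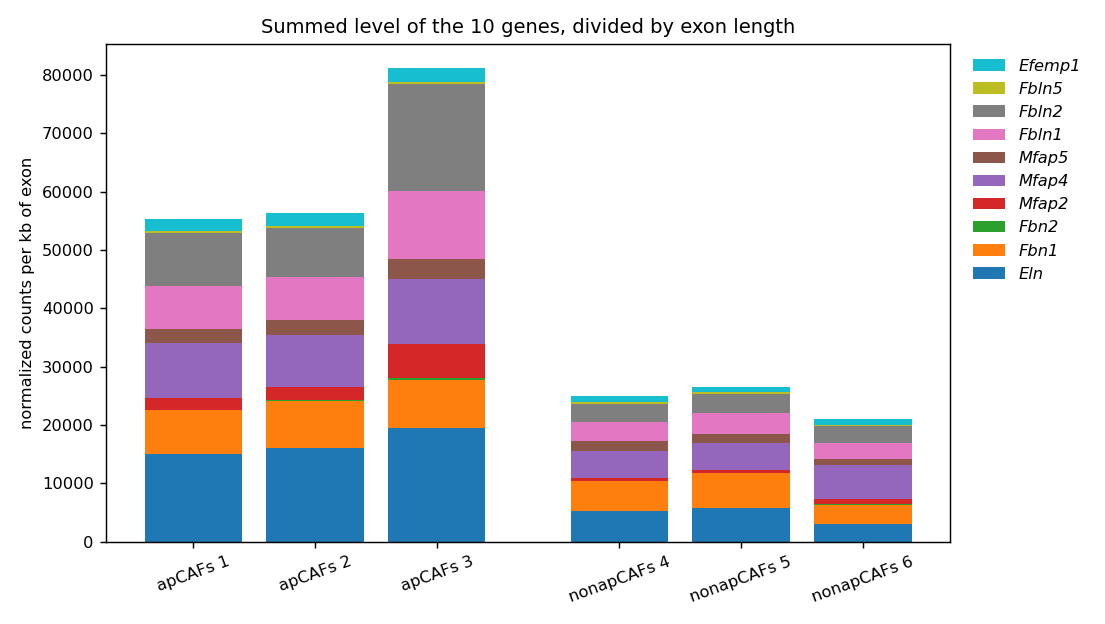
Normalized counts per kilobase of exon (vertical axis) of the 10 genes, stacked for each library, with the apCAFs libraries on the left. The bars of apCAFs 1, 2 and 3 reach 55280, 56286 and 81283, above the 21005 to 26535 of the nonapCAFs bars, and the Eln and Fbln2 segments take a larger part in apCAFs 3 than in any nonapCAFs library.

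Library apCAFs 3 and library nonapCAFs 6 each differed from the other libraries of their group, and the 10 genes did not follow them alike. Fbn2 was 3.68-fold higher in apCAFs 3 than in apCAFs 1 and 2, and 4.09-fold higher in nonapCAFs 6 than in nonapCAFs 4 and 5. Mfap2 was 2.72-fold higher in apCAFs 3 and 1.57-fold higher in nonapCAFs 6, compared in the same way. Eln went the opposite way in the 2 groups, at 1.25-fold in apCAFs 3 and 0.541-fold in nonapCAFs 6. Fbln2 was 2.11-fold higher in apCAFs 3 and stood at 0.903-fold in nonapCAFs 6. The median of all tested genes was 1 in both.

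**Figure D4:**
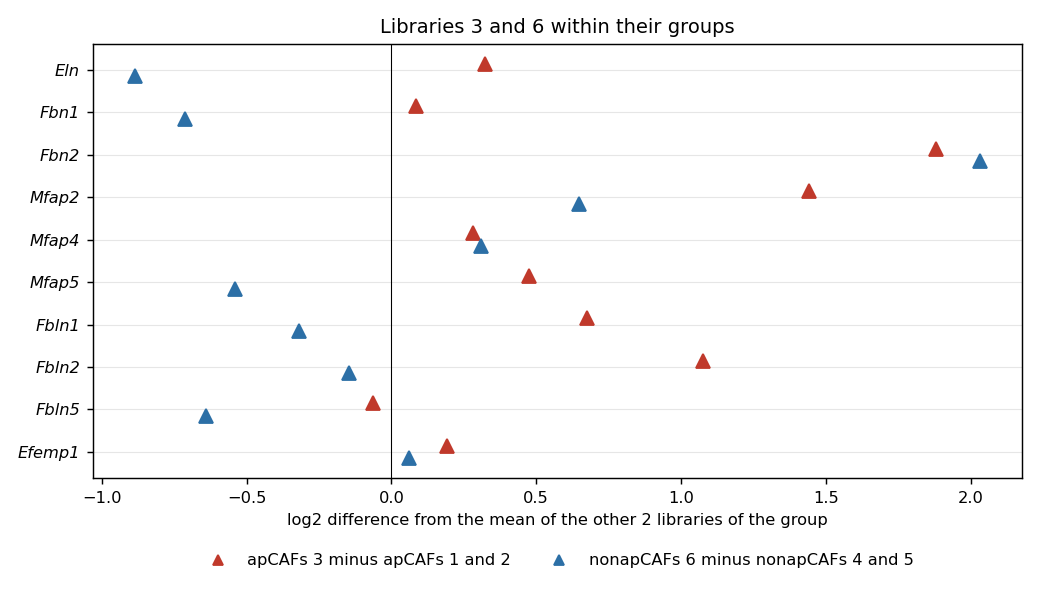
Log2 difference (horizontal axis) of apCAFs 3 from the mean of apCAFs 1 and 2 (red) and of nonapCAFs 6 from the mean of nonapCAFs 4 and 5 (blue), for each gene. Fbn2 stands at 1.88 and 2.03, whereas Eln stands at 0.32 in apCAFs 3 and -0.89 in nonapCAFs 6.

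The difference between the populations was therefore compared for libraries 1 and 2 against 4 and 5, and for library 3 against library 6, a split that the labels do not name as a batch. Eln was 2.82-fold higher in apCAFs 1 and 2 than in nonapCAFs 4 and 5, and 6.53-fold higher in apCAFs 3 than in nonapCAFs 6. Fbn2 was 3.55-fold higher in the first comparison and 3.20-fold higher in the second. Fbln2 was 2.65-fold and 6.20-fold higher, Mfap4 1.98-fold and 1.95-fold, and Efemp1 2.18-fold and 2.39-fold. Each of the 10 genes was higher in apCAFs in both comparisons. For the 9 whose groups did not overlap this had to be so, and only Fbn2 could have differed. With a term for libraries 3 and 6 in the fit, added once the values were known, 6 of the 10 passed, beside 6.24% of all tested genes called higher in that fit, Fbn2 among them (limma adjusted p = 0.0116), while Fbln1 was not called (limma adjusted p = 0.055).

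apCAFs 3 held the highest value of 9 of the 10 genes, and Fbln5 was highest in apCAFs 1, as was the type II marker sum. That sum was 8984 in apCAFs 3, below each nonapCAFs library, but it was mostly Abca3 (4425), Etv5 (3387) and Lamp3 (800). In nonapCAFs those genes ran from 1530 to 4289. Sftpc was at 226 in apCAFs 3 and 124 to 185 in nonapCAFs. Sftpd, at 8 against 9 to 38, and Napsa, at 3 against 9 to 17, were lower in apCAFs 3. Sftpb, Sftpa1, Slc34a2 and Cxcl15 lay within the nonapCAFs range. The fibroblast, mesothelial, smooth muscle, adventitial, epithelial, endothelial and leukocyte sums were all higher in every apCAFs library than in any nonapCAFs library. So were 9 of these 10 genes and the 10 called partner genes described further on. The part of these cell types in the result was not tested.

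The 10 genes were next set against fibrillar collagen genes within each library, and the outcome depended on the collagen. Relative to Col1a1, which encodes a chain of type I collagen, 0 of the 10 ratios were higher in every apCAFs library than in every nonapCAFs library, 6 were lower in this sense and 4 overlapped. Of 24605 genes above 0 in all libraries, 80.9% were lower and 3.45% higher when divided by Col1a1. Eln stood at 0.116 to 0.151 per count of Col1a1 in apCAFs and 0.0776 to 0.134 in nonapCAFs, which overlap, and Fbn1 at 0.0731 to 0.113 in apCAFs and 0.130 to 0.202 in nonapCAFs, which do not.

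Relative to Col3a1, which encodes type III collagen and had the higher values of the pair in every library, 4 ratios were higher, 0 lower and 6 overlapped, beside 69.8% of genes lower and 6.70% higher. The 4 were those of Eln, Mfap2, Fbln1 and Fbln2. Eln stood at 0.0891 to 0.101 per count of Col3a1 in apCAFs and 0.0380 to 0.0571 in nonapCAFs, and Fbln1 at 0.0247 to 0.0289 in apCAFs and 0.0182 to 0.0189 in nonapCAFs. Fbln1 was thus lower relative to Col1a1, at 0.0368 to 0.0376 in apCAFs and 0.0382 to 0.0450 in nonapCAFs, and higher relative to Col3a1. Each ratio whose groups were apart had a two-sided exact permutation p = 0.10, the smallest possible. In limma Col1a1 was called higher in apCAFs (3.08-fold, adjusted p = 0.0273), and Col3a1 did not pass (1.94-fold, adjusted p = 0.0708).

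Genes listed as partners of the elastic fibre were read from the same fit in 6 lists, of which 59 of 62 genes were tested. Of these, 10 were called higher and 0 lower, beside 3.91% and 0.486% of all tested genes. Fitting only genes averaging 100 or more, and a variance trend, each called 20 partner genes. In both, Hmcn2, Mfap3l, Adamts6 and Mmp12 were among them as lower in apCAFs. Of all genes these fits called 430 of 17829 and 490 of 36443 lower. At an unadjusted p under 0.05 limma gave 22 of the 59 in either direction, beside 19.3% of all tested genes. None of the 10 calls remained with an experiment term under any pairing or once the alike libraries were averaged. Those fits called 0 of all tested genes. Without the filter on values of 0, 4 remained: those of Thsd4, Slpi, Timp1 and Timp3.

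Lox, Loxl1 and Loxl2 rose, 3 of 5 with a list median of 1.60 in log2 fold change. Lox, the lysyl oxidase that crosslinks elastin and collagen, had 51787, 51200 and 82019 normalized counts in apCAFs and 12904, 14607 and 13798 in nonapCAFs (4.37-fold, limma adjusted p = 0.0178). Loxl1, which in mice is needed for elastic fibre maintenance, had 35447, 33561 and 66560 in apCAFs and 11801, 11853 and 11091 in nonapCAFs (3.71-fold, limma adjusted p = 0.0364). Loxl2 was 3.04-fold higher. Loxl3, named outside the rule, had 17281 ± 4133 in apCAFs and 19116 ± 2141 in nonapCAFs (SD, n = 3 each). All 3 calls were lost without apCAFs 1, apCAFs 2, nonapCAFs 4, nonapCAFs 5 or nonapCAFs 6, and that of Loxl2 also without apCAFs 3 and under median centring. The ratio of Eln to Lox overlapped between the groups, at 1.93 to 2.55 in apCAFs and 1.75 to 3.32 in nonapCAFs.

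Of 18 genes listed as other glycoproteins of the elastic fibre and microfibril, 2 rose, with a list median of 0.17. The list holds Mfap1a (log2 -0.0052) and Mfap1b (log2 0.127), whose place at the fibre was not tested. Ltbp2, a fibrillin-binding relative of the latent TGF-beta binding proteins, had 15466, 16514 and 17155 normalized counts in apCAFs and 6107, 6303 and 4409 in nonapCAFs (2.96-fold, limma adjusted p = 0.0209). Hmcn1, which encodes the fibulin family member hemicentin-1, had 2745, 3357 and 4336 in apCAFs and 582, 953 and 623 in nonapCAFs (4.87-fold, limma adjusted p = 0.0212). Both calls were lost without apCAFs 1, apCAFs 2 or nonapCAFs 4, that of Ltbp2 also without nonapCAFs 5 and that of Hmcn1 also without nonapCAFs 6. Its relative Hmcn2, named outside the rule, pointed the opposite way without passing in the main fit, at 469.7 ± 13.2 in apCAFs and 905.0 ± 216.5 in nonapCAFs (SD, n = 3 each, limma adjusted p = 0.0992). Efemp2 (fibulin-4), which is required for elastin crosslinking in mice and was named outside the rule, had 16503 ± 1024 in apCAFs and 13195 ± 1028 in nonapCAFs (limma adjusted p = 0.292).

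Of the 9 ADAMTS and ADAMTS-like genes linked to fibrillin, 2 rose, with a list median of 0.44. Thsd4, whose product ADAMTSL6 promotes fibrillin-1 assembly in mice, had 2042, 1999 and 3159 normalized counts in apCAFs and 251, 239 and 325 in nonapCAFs. Its 8.68-fold difference was the largest of this list (log2 3.12, SE 0.25, limma adjusted p = 0.0115). Adamtsl1, a secreted ADAMTS-like protein gene, was 4.83-fold higher (limma adjusted p = 0.0295). Thsd4 kept its call without any 1 library, whereas Adamtsl1 lost it when any library but apCAFs 3 was left out.

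Inhibitors of elastases and the elastases themselves were read side by side. Of 9 tested inhibitors 3 rose, with a list median of 1.03. Slpi, the secretory leukocyte protease inhibitor that blocks neutrophil elastase, had 12986, 15332 and 16878 normalized counts in apCAFs and 701, 777 and 517 in nonapCAFs (22.8-fold, limma adjusted p = 0.00643). Timp3, a matrix-bound metalloproteinase inhibitor, was 6.16-fold higher and Timp1 3.42-fold higher. Slpi and Timp3 kept their calls without any 1 library, whereas Timp1 lost it when any library but apCAFs 3 was left out. Of 9 tested elastin-degrading proteases 0 were called in limma, with 4 at an unadjusted p under 0.05, beside 19.3% of all tested genes, and a list median of 0.70. The most abundant, Mmp14 and Ctsl, had 72134 ± 14894 and 59022 ± 10671 in apCAFs, against 51559 ± 2176 and 62593 ± 3576 in nonapCAFs (SD, n = 3 each). The 4 are named here outside the rule. Mmp2, gelatinase A, had 36530, 36496 and 65765 in apCAFs and 11230, 11468 and 18991 in nonapCAFs (3.30-fold, limma adjusted p = 0.065). Ctsk, the elastin- and collagen-degrading cathepsin K gene, had 2968, 3163 and 5801 in apCAFs and 1040, 1152 and 1783 in nonapCAFs (2.94-fold, limma adjusted p = 0.0868). Prtn3, the neutrophil proteinase 3 gene, had 74, 113 and 234 in apCAFs and 24, 21 and 65 in nonapCAFs (3.81-fold, limma adjusted p = 0.179). These 3 were higher in every apCAFs library than in any nonapCAFs library, and Mmp12 was lower in every one. Mmp12, the macrophage elastase gene, had 451, 282 and 127 in apCAFs and 1442, 1172 and 1184 in nonapCAFs (log2 -2.31, SE 0.48, limma adjusted p = 0.0697). The fit of genes averaging 100 or more and the variance trend each called Mmp2 and Ctsk higher and Mmp12 lower, and the term for libraries 3 and 6 called Mmp2, Ctsk and Prtn3 higher. Elane, the neutrophil elastase gene and also outside the rule, was at 6 to 10 in apCAFs and 0 to 7 in nonapCAFs.

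Receptors for elastin and microfibrils gave 0 calls of 9 in limma, with 2 at an unadjusted p under 0.05, beside 19.3% of all tested genes, and a list median of 0.54. For 6 of the 9 every apCAFs library exceeded every nonapCAFs library, beside 17.1% of all tested genes. Fitting only genes averaging 100 or more, and a variance trend, each called Glb1 and Ctsa higher, beside 13.0% and 8.13% of genes. The authors' deposited table called these and Neu1 higher, beside 20.6% of genes. The 3 are named outside the rule. The most abundant were the integrin chain genes Itgb1, at 68844 ± 5708 in apCAFs and 65150 ± 5367 in nonapCAFs, and Itga5, at 43199 ± 2637 in apCAFs and 34851 ± 8810 in nonapCAFs (SD, n = 3 each).

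**Figure D5:**
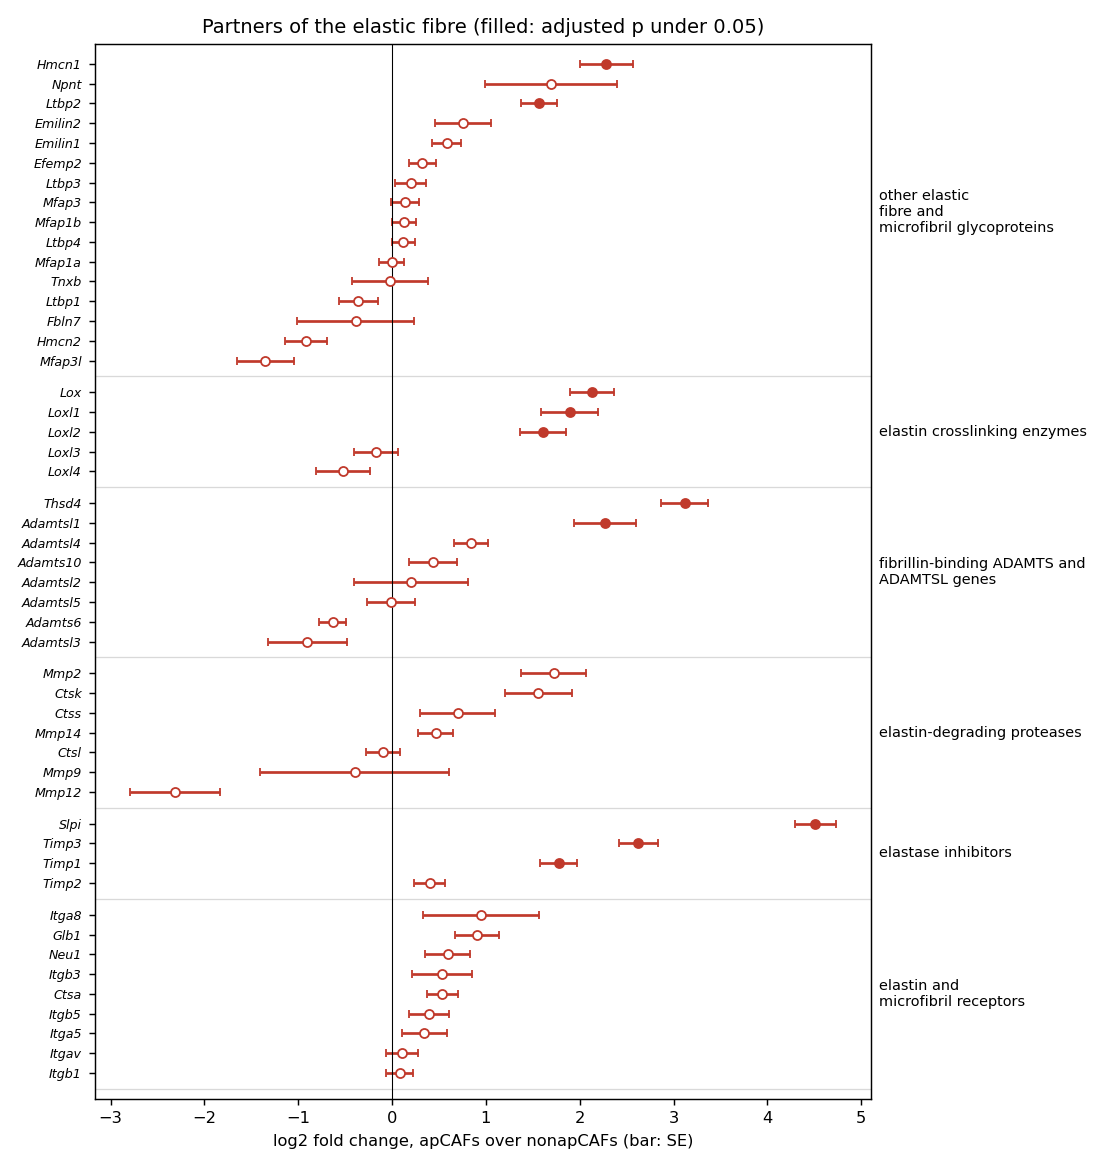
Log2 fold change with SE (horizontal axis, apCAFs over nonapCAFs) of the 49 partner genes averaging 100 or more, grouped by list and filled where the limma adjusted p is under 0.05. The filled points, 10 in all, lie between 1.56 (Ltbp2) and 4.51 (Slpi), and the point farthest below 0 is Mmp12 at -2.31.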

How the data were processed

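The files of 3 apCAFs and 3 nonapCAFs RNA-seq libraries were analysed. The authors deposited gene counts that they had normalized between libraries and rounded, per the file headers, and these are used as a score rather than as raw counts; depth is unknown. Per the file headers, the authors' table of comparisons gives DESeq2 p-values and adjusted p-values, the fold change as a ratio and as log2, and a GC percent (not used). Trim Galore, Bowtie2, DESeq2 and mm10 appear in the submitters' processing notes of the authors; no source used here gives the counter, annotation or strand setting. Exon lengths are unions of GENCODE M21 exons, where all 10 genes have the files' coordinates.

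With limma 3.58.1 (R 4.3.3), log2(value + 1) was modelled on group alone, with no trend in the variance. P-values are two-sided and Benjamini-Hochberg adjusted over all 36443 genes with a value above 0 anywhere. Tested on simulated data with libraries drawn independently, this procedure made more false calls than its threshold allows. Nearly all of those false calls were among genes averaging under 10. The simulation did not copy the alike libraries named above, whose averaging left no calls. It therefore cannot show that the threshold holds in these data, also not among genes averaging 100 or more, where all 10 members lie. Counts and percentages over all tested genes may hold added false calls from low genes. The rate of false calls among genes averaging 100 or more is unknown. The added 1 makes fold changes of low genes too small. The labels tell no more of the libraries' independence than the 3 experiments, so p-values measure the spread between these libraries, which may be partly technical. The 10 genes and all lists were chosen with earlier results of these data known. Named partner genes are the called ones of each list, or its 2 most abundant where fewer than 2 were called; others are marked. The other settings tried are given beside the results and in the closing section.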

Additional observations from a re-analysis of the deposited data

How the results depend on the processing

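All 10 genes kept a log2 fold change above 0 in each of the 25 alternatives, the authors' deposited table included. Much of this was fixed in advance. The minimum means, no filter, the variance trend, the 6 pairings and the term for libraries 3 and 6 cannot change the estimate. For the 9 genes whose groups did not overlap, leaving out or averaging libraries cannot change its sign. The widest span was that of Fbn2, at 1.15 without apCAFs 3 and 2.46 without nonapCAFs 6. The lowest value was 0.44, for Fbln5 under median centring. Of the 250 resulting values, 63 lost and 20 gained a call. Against 4 of the 10 genes, 10 partner genes and 1602 genes in all called by limma, an experiment term gave 0, 0 and 0 under each of the 6 pairings, and averaging the alike libraries 1 and 2 and 4 and 5 gave 0, 0 and 0; at an unadjusted p under 0.05 that average left 3491 genes higher and 1209 lower, and these fits have fewer degrees of freedom. Leaving out 1 library gave 0 to 3 of the 10, 3 to 10 partners and 310 to 1791 genes. A pseudocount of 0.5 gave 3, 10 and 1457, a pseudocount of 16 gave 7, 17 and 2605, a minimum mean of 100 gave 7, 20 and 2748, a variance trend 7, 20 and 3453, a minimum mean of 10 gave 16 partners and 2465 genes, and no filter 1, 4 and 436. Library totals, quantile normalization and upper-quartile centring each left 2 of the 10, median centring 1; these scalings moved the median of all genes from -0.04 to between -0.26 and -0.14. A term for libraries 3 and 6, chosen after the data were seen, gave 2490 genes, and with Col3a1 in place of Col1a1, also chosen then, 4 ratios in place of 0 were higher in every apCAFs library. The authors' deposited table called 9 of the 10, 26 partners and 5842 genes. Counts of partners and of all genes in this section hold both directions. The 26 partners include Hmcn2, Mfap3l, Adamts6 and Mmp12 as lower in apCAFs. Beyond what fewer genes or libraries do by construction, the cause was not tested. No paired analysis was possible because the labels do not say which libraries share an experiment, and their numbers, 1 to 3 and 4 to 6, pair none. The 6 experiment terms only run through every pairing of 1 apCAFs with 1 nonapCAFs library. Experiments that group the libraries otherwise are not covered by them. Sequencing depth is unknown, so no limit from counting error could be set.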
